A study of Homo sapiens with 24 samples.

Results

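The genes of fatty acid oxidation and ketone metabolism were followed in HepG2 cells, an established human liver cancer line, after disruption of KEAP1 and after knockdown of TFEB and TFE3. The set was chosen by symbol and holds 32 genes, namely those for activation and uptake of fatty acids, the carnitine shuttle, the mitochondrial β-oxidation spiral, the auxiliary enzymes for unsaturated chains, electron transfer, the peroxisomal steps, ketone bodies, and the receptor PPARA. A row of the count table carried the gene ID of 31 of them, out of 12009 gene IDs in all, and DECR2 was not analysed here. The filter on low counts left 30 members among 11152 genes tested. BDH1, the dehydrogenase that interconverts the ketone bodies acetoacetate and 3-hydroxybutyrate, had 76 reads over the 24 libraries, between 0 and 14 in each, and did not pass the filter. Of the 32 genes, 20 encode mitochondrial and 6 encode peroxisomal proteins in the lists used here.

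Fatty acids are first joined to coenzyme A by acyl-CoA synthetases. Long chains enter mitochondria as carnitine esters, through CPT1A on the outer membrane, the carnitine-acylcarnitine carrier SLC25A20 and CPT2 on the inner membrane. Each turn of the spiral then oxidizes, hydrates, oxidizes again and cleaves the chain, and the electrons taken up by the acyl-CoA dehydrogenases reach the respiratory chain through ETFA, ETFB and ETFDH. Peroxisomes shorten very long and branched chains with enzymes of their own. In liver cells PPARA, a nuclear receptor that pairs with RXRA, is known to drive many of these genes, and acetyl-CoA from the spiral feeds ketone synthesis.

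The cells carried the lentiCRISPRv2 vector with Cas9 and 1 of 3 guides. The control guide sgCtrl (sgAAVS168) cuts the AAVS1 safe-harbor site, and sgKeap1-1 and sgKeap1-2 cut KEAP1, whose product holds the transcription factor NRF2 in check. Each guide stands for 1 selected population of transduced cells, so every library of a guide shares that population. Each population received siNC, a non-targeting control siRNA, or the siRNA pools sitfeb/sitfe3 against the transcription factors TFEB and TFE3, and RNA was taken 72 hours later, which gave 6 groups of 4 libraries. The groups were siNC with sgCtrl, sgKeap1-1 or sgKeap1-2 and sitfeb/sitfe3 with the same 3 guides, and all of them had gone through lentiviral transduction, selection and siRNA transfection. The comparisons ask how the members change when KEAP1 is cut, whether that change depends on TFEB and TFE3, and what the knockdown does by itself. The sample descriptions and column names give the 4 libraries of each group 4 different date-like prefixes, and each prefix goes with the same replicate number in all 6 groups. What the prefix marks is not stated, and neither is whether the 4 libraries came from separate cultures, so p-values measure the spread between these libraries, which may be technical.

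Libraries held 3527000 to 4600951 reads. KEAP1 mRNA averaged 84.9 ± 6.69 CPM with siNC and sgCtrl, 53.8 ± 6.17 with sgKeap1-1 and 77.4 ± 3.89 with sgKeap1-2 (SD, n = 4), where CPM are read counts brought to 1 common library size with a correction for composition. KEAP1 mRNA thus fell with sgKeap1-1, at a log2 change of -0.66 (adjusted p = 0.000102), and did not pass with sgKeap1-2, at -0.14 (adjusted p = 0.448). Reads from transcript ends do not show the edit. NQO1, a standard NRF2 target, rose under the KEAP1 guides with a log2 change of 1.33 (SE 0.05, adjusted p = 1.59e-16), as did all 8 NRF2 targets tested. After sitfeb/sitfe3, the log2 fold change averaged over guides was -1.92 for TFEB and -1.67 for TFE3 (adjusted p = 4.91e-06 and adjusted p = 6.33e-08). A pair of libraries, sitfeb/sitfe3 sgKeap1-2 replicate 1 and siNC sgKeap1-1 replicate 1, stood apart on the second principal component, which held 10.7% of the variance. Both are numbered 1 and so share a prefix, and the former spent 4.42% of its reads on MTRNR2L8. Of the 8 hepatocyte markers listed, all 8 had reads in every group, and their summed level ran from 23300 to 34200 CPM (median 31000) with sgCtrl and from 12800 to 19300 CPM (median 16100) with the KEAP1 guides. Because CPM are shares of a library, fewer cells of a kind and less RNA per cell cannot be told apart. Of other cell types, 1 of 6 fibroblast markers (PDGFRB), 0 of 4 endothelial and 2 of 4 leukocyte markers (CD68 and LYZ) were analysed here. LYZ ran from 1300 to 2810 CPM with sgCtrl and from 944 to 1910 CPM with the KEAP1 guides. CD68 was low, at 0.943 to 4.47 CPM and 1.35 to 4.78 CPM.

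Promoter sequence was available for 26 of the 32 members, as 38 windows of 300 bases that run from 250 bases before to 50 bases after a RefSeq transcript start on GRCh38.p14. ACAA1, CRAT, DECR1, DECR2, EHHADH and ETFDH had no entry. The windows below belong to the members that moved most in each direction, to the ACAA2 window with a PPARA-type element, and to HADHB, whose window overlaps that of its neighbor HADHA. Capitals mark a motif and all other bases are in lower case. Reads at transcript ends do not tell which start was used.
CPT1A, chr11:68844228-68844527, minus strand: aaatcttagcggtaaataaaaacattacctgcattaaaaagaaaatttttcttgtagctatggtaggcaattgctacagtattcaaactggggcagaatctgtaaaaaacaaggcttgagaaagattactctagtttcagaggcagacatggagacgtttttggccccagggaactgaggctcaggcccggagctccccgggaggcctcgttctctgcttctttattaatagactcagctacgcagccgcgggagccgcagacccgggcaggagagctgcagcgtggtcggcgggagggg
ETFB, chr19:51366339-51366638, minus strand: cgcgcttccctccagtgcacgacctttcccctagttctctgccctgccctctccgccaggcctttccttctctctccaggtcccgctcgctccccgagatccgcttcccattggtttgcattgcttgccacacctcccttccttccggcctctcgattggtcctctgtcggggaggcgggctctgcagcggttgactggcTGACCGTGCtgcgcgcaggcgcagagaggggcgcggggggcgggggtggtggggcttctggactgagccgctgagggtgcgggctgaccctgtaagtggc
HADH, chr4:107989639-107989938, plus strand: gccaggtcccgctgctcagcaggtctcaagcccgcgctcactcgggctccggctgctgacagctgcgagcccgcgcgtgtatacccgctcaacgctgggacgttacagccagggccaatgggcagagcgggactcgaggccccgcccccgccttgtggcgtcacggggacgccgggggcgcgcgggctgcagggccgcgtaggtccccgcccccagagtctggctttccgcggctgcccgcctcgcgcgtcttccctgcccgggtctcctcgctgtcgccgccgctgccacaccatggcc
ACAA2, chr18:49813484-49813783, minus strand: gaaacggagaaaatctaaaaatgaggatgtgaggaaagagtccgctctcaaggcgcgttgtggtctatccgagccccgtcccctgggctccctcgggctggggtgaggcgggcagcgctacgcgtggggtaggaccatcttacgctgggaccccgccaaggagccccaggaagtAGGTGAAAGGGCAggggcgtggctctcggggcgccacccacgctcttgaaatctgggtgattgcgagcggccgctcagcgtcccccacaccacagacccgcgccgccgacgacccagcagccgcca
HADHB, chr2:26244689-26244988, plus strand: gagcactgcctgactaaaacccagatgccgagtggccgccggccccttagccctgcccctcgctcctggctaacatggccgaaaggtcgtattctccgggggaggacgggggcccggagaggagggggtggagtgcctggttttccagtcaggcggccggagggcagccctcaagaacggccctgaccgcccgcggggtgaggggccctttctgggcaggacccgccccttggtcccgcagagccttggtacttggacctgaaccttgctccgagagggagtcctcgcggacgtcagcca
ETFB and HADH each have 2 windows, and the one printed for ETFB was chosen because it holds a match. Its capitals are TGACNNNGC, the core of the antioxidant response element bound by NRF2 with small MAF proteins, 50 bases before the start, and the other ETFB window has no match. On both strands together this core was found in 5 of the 38 member windows, or 13.2%, in 13.3% of all 35116 windows and in 14.6% of the 14148 windows of genes in the count table. The difference was not tested. ETFB, ETFA, ACADVL, ACSL1 and ACSL5 were the members with a match. The E-box CACGTG, the core bound by TFEB and TFE3, was in 0 of the 38 member windows in 7.26% of all windows and in 9.26% of those of genes in the count table. The DR1 element, a direct repeat of AGGTCA with 1 base between the copies and at most 2 mismatches, is the kind of site bound by PPARA with RXRA. It was in 3 of 38 member windows (7.89%), those of ACAA2, ACSL1 and SLC27A2, in 2.97% of all windows and in 2.25% of those of genes in the count table. In the ACAA2 window it lies 76 bases before the start. The capitals of the ACAA2 window mark it. HADHA and HADHB, which encode both subunits of the mitochondrial trifunctional protein, are read in opposite directions from starts 307 bases apart, and their windows share 194 bases. A match is only a run of letters, and the absence of one says nothing about the factor.

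Averaged over both guides and both siRNAs, the KEAP1 guides lowered more of these genes than they raised. By limma-voom with Benjamini-Hochberg adjustment over all genes tested and a threshold of 0.05, 16 of the 30 members passed, 3 higher and 13 lower. Among all genes tested, 30.9% passed, 15.2% higher and 15.6% lower, and the members' share was 53.3%. The median log2 fold change was -0.23 over the members and 0.00 over all genes, with 22 members below 0 and 8 above. CPT1A, ETFB and ACADVL rose, and the other 13 fell, led by HADH, ACADSB, ACAA1, EHHADH and ACAA2. Without the pair of libraries that stood apart, a choice made after seeing the data, 19 members passed, 4 higher and 15 lower, beside 37.9% of all genes. Under a replicate block, which fits the number each library carries, 17 passed, 4 higher and 13 lower, beside 32.8% of all genes, and the 1 gained was ACSL5.

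**Figure D1:**
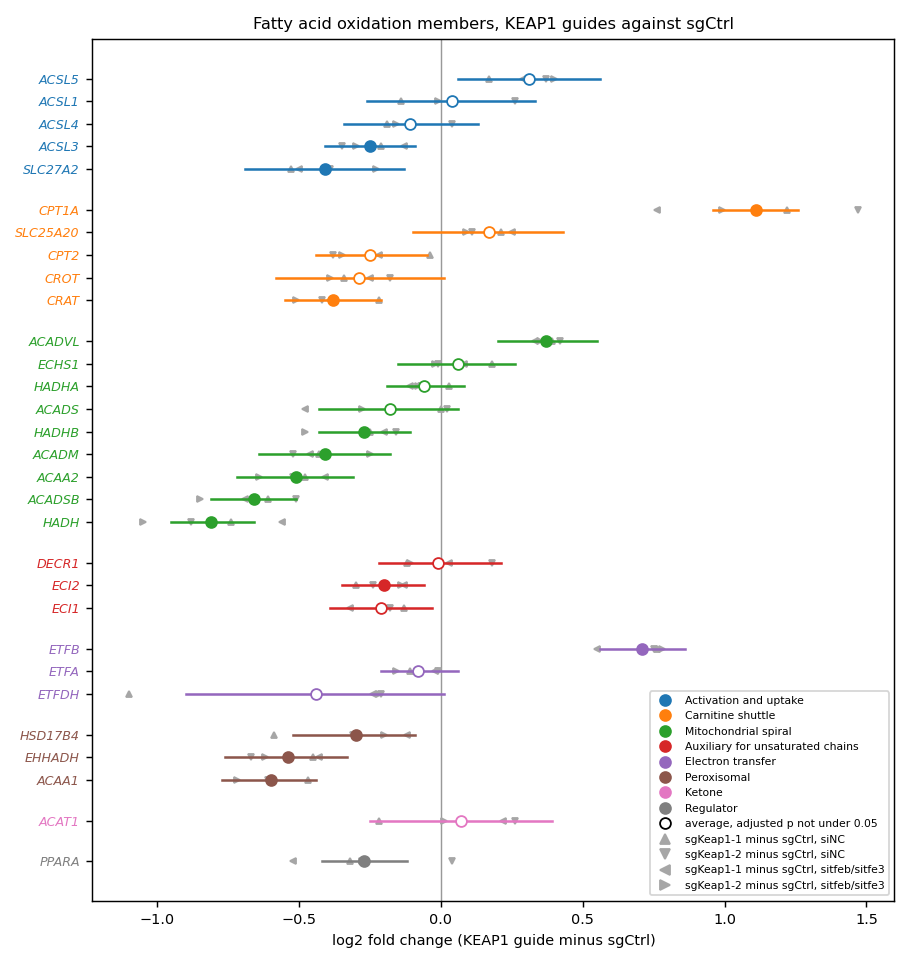
Log2 fold change of the 30 members tested, KEAP1 guides minus sgCtrl, grouped and colored by role. Circles are the average over guides and siRNAs with its 95% interval, filled where the adjusted p was under 0.05, and gray symbols are the 4 single comparisons. CPT1A at 1.11 and ETFB at 0.71 lie farthest to the right and HADH at -0.81 farthest to the left.

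The same comparison was made for each guide within each siRNA arm. With siNC, 6 members passed for sgKeap1-1, 2 higher and 4 lower (20% of the members against 10.9% of all genes, 6.01% higher and 4.91% lower), and 9 passed for sgKeap1-2, 3 higher and 6 lower (30% against 14.7%, 7.58% higher and 7.14% lower). After sitfeb/sitfe3, 6 passed for sgKeap1-1, 2 higher and 4 lower (20% against 10.5%, 5.69% higher and 4.81% lower), and 9 passed for sgKeap1-2, 2 higher and 7 lower (30% against 20.2%, 10.6% higher and 9.59% lower). The members' median log2 fold change was -0.22, -0.17, -0.17 and -0.21 in this order. CPT1A, ETFB, HADH, ACADSB and ACAA1 passed in all 4 comparisons, while 18 of the 30 members passed in none. With the replicate block, 6 passed in all 4, the added 1 being ACAA2, and 16 in none. The sign was negative in all 4 for 17 members and positive in all 4 for 5 members. The libraries of the guide and of sgCtrl did not overlap for 8 members (26.7%) and 11 members (36.7%) with siNC and for 8 (26.7%) and 10 (33.3%) after sitfeb/sitfe3, beside 14.1%, 20.3%, 17.2% and 19.8% of all genes. The 4 comparisons share their controls in pairs, so they are not independent. Passes and signs over all 4 were not counted for all genes, so those counts have no share beside them.

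Among the genes of the carnitine shuttle, CPT1A was the 1 that rose. CPT1A makes the carnitine esters in which long chains enter mitochondria, a step known as rate-limiting for the pathway. With siNC, CPT1A read 89.4, 113, 128 and 75.7 CPM in the sgCtrl libraries, 267, 215, 237 and 210 CPM with sgKeap1-1 and 267, 314, 272 and 253 CPM with sgKeap1-2. The corresponding CPT1A values after sitfeb/sitfe3 were 113, 130, 121 and 113 CPM with sgCtrl, 196, 201, 208 and 202 CPM with sgKeap1-1 and 215, 243, 239 and 251 CPM with sgKeap1-2. Every KEAP1-guide library lay above every sgCtrl library, 196 CPM at the lowest against 130 CPM at the highest. The log2 fold change averaged over guides and siRNAs was 1.11 (SE 0.07, adjusted p = 6.78e-12), or 2.16-fold. It was 1.22 for sgKeap1-1 and 1.47 for sgKeap1-2 with siNC, and 0.76 and 0.99 after sitfeb/sitfe3, with adjusted p at most 7.56e-05.

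CRAT, the carnitine acetyltransferase that buffers short acyl groups, moved the other way. The siNC libraries held 25.4, 29.9, 29 and 29.5 CPM of CRAT with sgCtrl, 24.4, 27.8, 26.1 and 20 CPM with sgKeap1-1 and 23.7, 20.2, 19.7 and 21.6 CPM with sgKeap1-2. The corresponding CRAT values after sitfeb/sitfe3 were 33.2, 31.9, 27.6 and 35.4 CPM with sgCtrl, 24, 21.6, 26.5 and 25.5 CPM with sgKeap1-1 and 26.6, 18.2, 24.5 and 21.5 CPM with sgKeap1-2. With siNC the sgKeap1-1 libraries, up to 27.8 CPM, overlapped those of sgCtrl, from 25.4 CPM, and the sgKeap1-2 libraries did not. After sitfeb/sitfe3 every KEAP1-guide library was below every sgCtrl library, at most 26.6 CPM against at least 27.6 CPM. CRAT fell with an averaged log2 fold change of -0.38 (SE 0.08, adjusted p = 0.000652) and passed in 2 of the 4 single comparisons, both with sgKeap1-2. The other shuttle genes did not pass. CPT2, which turns carnitine esters back into acyl-CoA inside mitochondria, had a log2 change of -0.25 (95% interval -0.44 to -0.05, adjusted p = 0.0548) and passed once the pair of libraries was left out, at -0.27. SLC25A20, the carrier, had a log2 fold change of 0.17 (95% interval -0.10 to 0.43, adjusted p = 0.357). CROT, which makes carnitine esters of medium chains in peroxisomes, had a log2 change of -0.29 (95% interval -0.58 to 0.01, adjusted p = 0.133).

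In the spiral 6 of 9 genes passed, ACADVL higher and ACADM, ACADSB, HADH, HADHB and ACAA2 lower. Of all genes, 30.9% passed, 15.2% higher and 15.6% lower. HADH, the dehydrogenase of the third step for short and medium chains, changed most among the genes that fell. HADH levels under siNC were 68.8, 65.6, 73.2 and 60.4 CPM with sgCtrl, 41.3, 43.4, 34.2 and 41.7 CPM with sgKeap1-1 and 36.4, 35, 38.4 and 34.7 CPM with sgKeap1-2. The corresponding HADH values after sitfeb/sitfe3 were 65, 74.4, 67.9 and 55.5 CPM with sgCtrl, 51.4, 38.8, 46.6 and 42.1 CPM with sgKeap1-1 and 31.3, 34.2, 27.7 and 33.1 CPM with sgKeap1-2. No KEAP1-guide library reached the lowest sgCtrl library, 51.4 CPM at the highest against 55.5 CPM. HADH fell with an averaged log2 fold change of -0.81 (SE 0.07, adjusted p = 7.98e-10), or 0.571 of the sgCtrl level, and ranged from -0.56 to -1.05 over the 4 comparisons. CPT1A, ETFB and HADH were the 3 of 30 members (10%) with no overlap between the 8 sgCtrl and 16 KEAP1-guide libraries, against 4.42% of all genes tested.

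ACADSB oxidizes short and branched acyl chains, among them an intermediate of isoleucine breakdown. In the siNC arm, ACADSB stood at 180, 198, 220 and 208 CPM with sgCtrl, at 97.8, 154, 139 and 145 CPM with sgKeap1-1 and at 139, 137, 148 and 142 CPM with sgKeap1-2. The corresponding ACADSB values after sitfeb/sitfe3 were 151, 196, 191 and 159 CPM with sgCtrl, 117, 105, 102 and 108 CPM with sgKeap1-1 and 98.1, 84.1, 108 and 94.5 CPM with sgKeap1-2. With either siRNA every KEAP1-guide library was below every sgCtrl library, but the highest siNC KEAP1-guide value, 154 CPM, passed the lowest sitfeb/sitfe3 sgCtrl value, 151 CPM. ACADSB fell with an averaged log2 fold change of -0.66 (SE 0.07, adjusted p = 5.22e-08).

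ACAA2 is the thiolase that cleaves acetyl-CoA from the chain at the end of each turn. With siNC, ACAA2 read 140, 113, 124 and 115 CPM in the sgCtrl libraries, 119, 90.3, 74.9 and 73 CPM with sgKeap1-1 and 110, 81.3, 77.9 and 78.2 CPM with sgKeap1-2. The corresponding ACAA2 values after sitfeb/sitfe3 were 177, 121, 117 and 134 CPM with sgCtrl, 114, 92.2, 104 and 97.4 CPM with sgKeap1-1 and 119, 92.7, 67.2 and 77.8 CPM with sgKeap1-2. In each of the 6 groups replicate 1 was the highest library, and sgCtrl and KEAP1-guide libraries overlapped within an arm only through the pair that stood apart, sitfeb/sitfe3 sgKeap1-2 replicate 1 and siNC sgKeap1-1 replicate 1, at 119 CPM each. ACAA2 fell with an averaged log2 fold change of -0.51 (SE 0.10, adjusted p = 0.000213) and passed in 2 of the 4 single comparisons, both with sgKeap1-2. With the replicate block it also passed with sgKeap1-1, at -0.48 with siNC (adjusted p = 0.00239) and -0.42 after sitfeb/sitfe3 (adjusted p = 0.00628), by limma-voom.

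ACADM starts the spiral for medium chains. The siNC libraries held 65.5, 46.1, 51.1 and 59.2 CPM of ACADM with sgCtrl, 45.9, 38.1, 40.2 and 40 CPM with sgKeap1-1 and 41.5, 37.4, 38.9 and 36.1 CPM with sgKeap1-2. The corresponding ACADM values after sitfeb/sitfe3 were 44.7, 55.8, 63 and 52.3 CPM with sgCtrl, 35.4, 45.1, 36.1 and 39.6 CPM with sgKeap1-1 and 83.8, 35.2, 44.3 and 34 CPM with sgKeap1-2. The value of 83.8 CPM belongs to sitfeb/sitfe3 sgKeap1-2 replicate 1, 1 of the pair that stood apart, and is above all sgCtrl libraries. ACADM fell with an averaged log2 fold change of -0.41 (SE 0.11, adjusted p = 0.00535), and passed in none of the 4 single comparisons.

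HADHB carries the thiolase of the trifunctional protein for long chains. HADHB levels under siNC were 148, 117, 128 and 135 CPM with sgCtrl, 87.2, 108, 117 and 137 CPM with sgKeap1-1 and 117, 119, 130 and 108 CPM with sgKeap1-2. The corresponding HADHB values after sitfeb/sitfe3 were 128, 150, 141 and 117 CPM with sgCtrl, 130, 116, 112 and 107 CPM with sgKeap1-1 and 73.6, 92.7, 111 and 107 CPM with sgKeap1-2. The groups overlapped in the siNC arm, and after sitfeb/sitfe3 they were apart for sgKeap1-2 but not for sgKeap1-1. HADHB fell with an averaged log2 fold change of -0.27 (SE 0.08, adjusted p = 0.00966) and passed alone for sgKeap1-2 after sitfeb/sitfe3, at -0.48. Its partner HADHA, whose own window overlaps the one printed above by 194 bases, held 279 to 374 CPM (median 326) in the 8 sgCtrl libraries and 281 to 390 CPM (median 308) in the 16 KEAP1-guide libraries, with a log2 change of -0.06 (95% interval -0.19 to 0.08, adjusted p = 0.547). The difference between these subunits was not tested.

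ACADVL, the dehydrogenase that opens the spiral for very long chains, was the 1 spiral gene that rose. In the siNC arm, ACADVL stood at 60.4, 107, 87.3 and 96.9 CPM with sgCtrl, at 117, 97.3, 128 and 111 CPM with sgKeap1-1 and at 112, 115, 128 and 108 CPM with sgKeap1-2. The corresponding ACADVL values after sitfeb/sitfe3 were 81.1, 92.7, 86.4 and 112 CPM with sgCtrl, 115, 107, 127 and 118 CPM with sgKeap1-1 and 103, 124, 137 and 108 CPM with sgKeap1-2. The lowest values were in sgCtrl libraries, and the highest sgCtrl value, 112 CPM, lay within the KEAP1-guide range of 97.3 to 137 CPM. ACADVL rose with an averaged log2 fold change of 0.37 (SE 0.09, adjusted p = 0.00131). The remaining spiral genes did not pass, with a log2 change of -0.18 (95% interval -0.43 to 0.06, adjusted p = 0.259) for ACADS, the short-chain dehydrogenase, and 0.06 (95% interval -0.15 to 0.26, adjusted p = 0.72) for ECHS1, the hydratase.

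**Figure D2:**
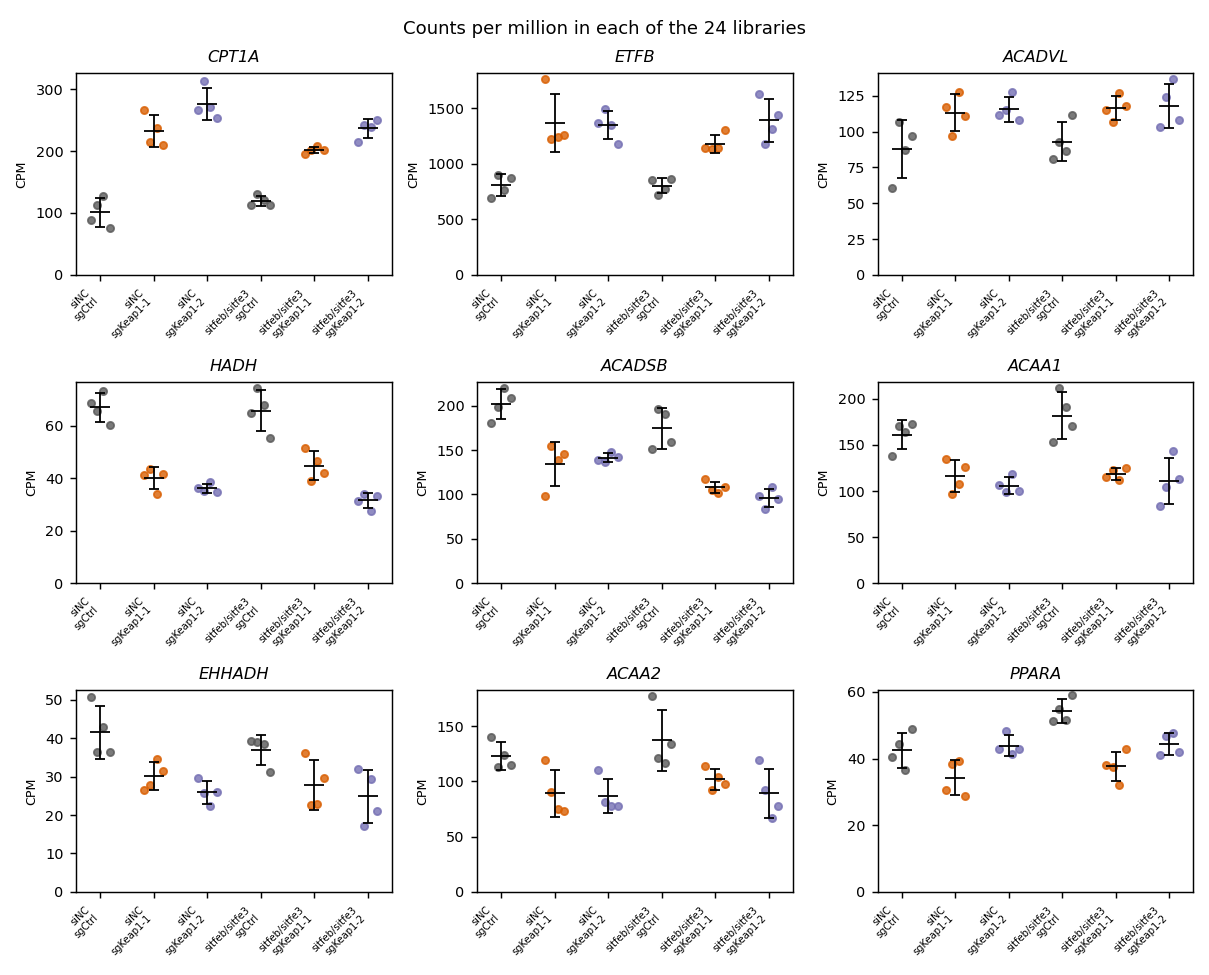
CPM of 9 members in each library, by siRNA and guide. Points are libraries (gray sgCtrl, orange sgKeap1-1, purple sgKeap1-2), and the bars are mean and SD of 4. CPT1A and ETFB sit higher and HADH lower in every KEAP1-guide library than in any sgCtrl library, while the PPARA groups overlap with siNC.

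The electron transfer genes split, with ETFB as the member that rose most after CPT1A. ETFA and ETFB are the subunits of the electron transfer flavoprotein, which collects electrons from the acyl-CoA dehydrogenases. With siNC, ETFB read 687, 900, 761 and 874 CPM in the sgCtrl libraries, 1760, 1220, 1240 and 1260 CPM with sgKeap1-1 and 1370, 1490, 1350 and 1180 CPM with sgKeap1-2. The corresponding ETFB values after sitfeb/sitfe3 were 854, 722, 774 and 862 CPM with sgCtrl, 1140, 1130, 1140 and 1300 CPM with sgKeap1-1 and 1630, 1180, 1310 and 1440 CPM with sgKeap1-2. All 16 KEAP1-guide libraries were above all 8 sgCtrl libraries, 1130 CPM at the lowest against 900 CPM at the highest. The averaged log2 fold change was 0.71 (SE 0.07, adjusted p = 1.84e-08), or 1.64-fold, and the single comparisons ran from 0.55 to 0.78. ETFA, the other subunit, held 333 to 400 CPM (median 363) in the 8 sgCtrl libraries and 251 to 399 CPM (median 353) in the 16 KEAP1-guide libraries, with a log2 fold change of -0.08 (95% interval -0.21 to 0.06, adjusted p = 0.409). ETFDH, the membrane oxidoreductase that passes the electrons on, had 3 to 41 reads per library and a log2 change of -0.44 (95% interval -0.90 to 0.01, adjusted p = 0.134). Its lowest value, 0.756 CPM from 3 reads, came from siNC sgKeap1-1 replicate 1, and the other 3 libraries of that group held 3.33, 4.02 and 8.44 CPM.

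All 3 genes of the peroxisomal steps fell, beside 15.6% of all genes that were lower. ACAA1 is the peroxisomal thiolase. The siNC libraries held 138, 170, 164 and 173 CPM of ACAA1 with sgCtrl, 135, 97.3, 108 and 126 CPM with sgKeap1-1 and 107, 99, 118 and 99.6 CPM with sgKeap1-2. The corresponding ACAA1 values after sitfeb/sitfe3 were 153, 212, 191 and 170 CPM with sgCtrl, 115, 123, 112 and 125 CPM with sgKeap1-1 and 83.8, 104, 143 and 113 CPM with sgKeap1-2. In each arm the KEAP1-guide libraries were below the sgCtrl libraries, and over both arms the highest KEAP1-guide value, 143 CPM, was above the lowest sgCtrl value, 138 CPM. ACAA1 fell with an averaged log2 fold change of -0.60 (SE 0.08, adjusted p = 1.38e-06).

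EHHADH combines the hydratase and dehydrogenase of the peroxisomal spiral. EHHADH levels under siNC were 50.8, 36.4, 42.8 and 36.3 CPM with sgCtrl, 26.5, 27.8, 34.7 and 31.6 CPM with sgKeap1-1 and 29.6, 25.8, 22.4 and 26 CPM with sgKeap1-2. The corresponding EHHADH values after sitfeb/sitfe3 were 39.2, 38.9, 38.5 and 31.2 CPM with sgCtrl, 36.2, 22.6, 23 and 29.7 CPM with sgKeap1-1 and 31.9, 17.2, 29.3 and 21.1 CPM with sgKeap1-2. With siNC the groups did not overlap, and after sitfeb/sitfe3 they did. EHHADH fell with an averaged log2 fold change of -0.54 (SE 0.10, adjusted p = 0.000185), and passed for sgKeap1-2 in both arms and for sgKeap1-1 in neither. With the replicate block EHHADH also passed for sgKeap1-1 with siNC, at -0.47 (adjusted p = 0.0432).

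HSD17B4, the D-bifunctional protein for very long and branched chains, changed less. In the siNC arm, HSD17B4 stood at 84.6, 65.1, 87.6 and 78.1 CPM with sgCtrl, at 37.5, 51.1, 57.1 and 66.5 CPM with sgKeap1-1 and at 77.7, 50.3, 59.4 and 68.3 CPM with sgKeap1-2. The corresponding HSD17B4 values after sitfeb/sitfe3 were 90.5, 65.7, 75.1 and 47.6 CPM with sgCtrl, 72.4, 64.9, 55.9 and 57.8 CPM with sgKeap1-1 and 57.2, 56.8, 63.8 and 58.4 CPM with sgKeap1-2. The groups overlapped in both arms. HSD17B4 fell with an averaged log2 fold change of -0.30 (SE 0.10, adjusted p = 0.0265), a call that was lost without siNC sgCtrl replicate 1 (-0.28, adjusted p = 0.0533) or replicate 3 (-0.28, 0.0606), and without sitfeb/sitfe3 sgCtrl replicate 1 (-0.24, 0.0889) or replicate 3 (-0.28, 0.0617).

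A pair of auxiliary isomerases shifts double bonds so that unsaturated chains can go through the spiral, ECI1 in mitochondria and ECI2 in peroxisomes and mitochondria. With siNC, ECI2 read 124, 120, 117 and 113 CPM in the sgCtrl libraries, 89.2, 96.7, 94.8 and 106 CPM with sgKeap1-1 and 97.1, 99.6, 108 and 95.5 CPM with sgKeap1-2. The corresponding ECI2 values after sitfeb/sitfe3 were 101, 141, 143 and 99.1 CPM with sgCtrl, 117, 111, 104 and 104 CPM with sgKeap1-1 and 116, 95, 127 and 99.6 CPM with sgKeap1-2. With siNC all KEAP1-guide libraries were below all sgCtrl libraries, and after sitfeb/sitfe3 they overlapped. ECI2 fell with an averaged log2 fold change of -0.20 (SE 0.07, adjusted p = 0.0313). The call was lost without siNC sgCtrl replicate 1 (-0.19, adjusted p = 0.0599) or replicate 2 (-0.20, 0.0528), without sitfeb/sitfe3 sgCtrl replicate 2 (-0.16, 0.0954) or replicate 3 (-0.16, 0.107), and without sitfeb/sitfe3 sgKeap1-2 replicate 2 (-0.18, 0.0504). ECI1 had a log2 change of -0.21 (95% interval -0.39 to -0.03, adjusted p = 0.0757), and DECR1, the mitochondrial dienoyl-CoA reductase, had -0.01 (95% interval -0.22 to 0.21, adjusted p = 0.978).

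By compartment, 4 of 5 tested peroxisomal genes fell and none rose, beside 15.6% of all genes that were lower and 15.2% that were higher, with a median log2 fold change of -0.30. Of these 4, HSD17B4 and ECI2 each lost the call in 5 of 32 alternative settings, and ECI2 is found in mitochondria too. Of 19 tested mitochondrial genes, 6 fell and 3 rose, with a median of -0.18. As a description, the mean log2 CPM over the peroxisomal genes was 5.84 ± 0.14 (SD, n = 8) with sgCtrl and 5.45 ± 0.13 (SD, n = 16) with the KEAP1 guides, and over the mitochondrial genes 6.28 ± 0.03 and 6.19 ± 0.05. The peroxisomal ranges, 5.62 to 6.02 and 5.23 to 5.76, overlapped, and so did the mitochondrial ranges, 6.23 to 6.31 and 6.08 to 6.25. The difference between the compartments was not tested. The members together took 0.445% ± 0.013 of the reads of named genes with sgCtrl (SD, n = 8) and 0.467% ± 0.0195 with the KEAP1 guides (SD, n = 16), and without ETFB 0.365% ± 0.0164 and 0.336% ± 0.0213. So the mean summed share was higher with ETFB counted and lower without it, but the ranges overlapped and neither difference was tested. They were 0.426% to 0.46% and 0.424% to 0.498% with ETFB, and 0.342% to 0.386% and 0.296% to 0.364% without it. After sitfeb/sitfe3 the share with ETFB was 0.442% ± 0.0144 with sgCtrl, 0.453% ± 0.00638 with sgKeap1-1 and 0.452% ± 0.019 with sgKeap1-2 (SD, n = 4).

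**Figure D3:**
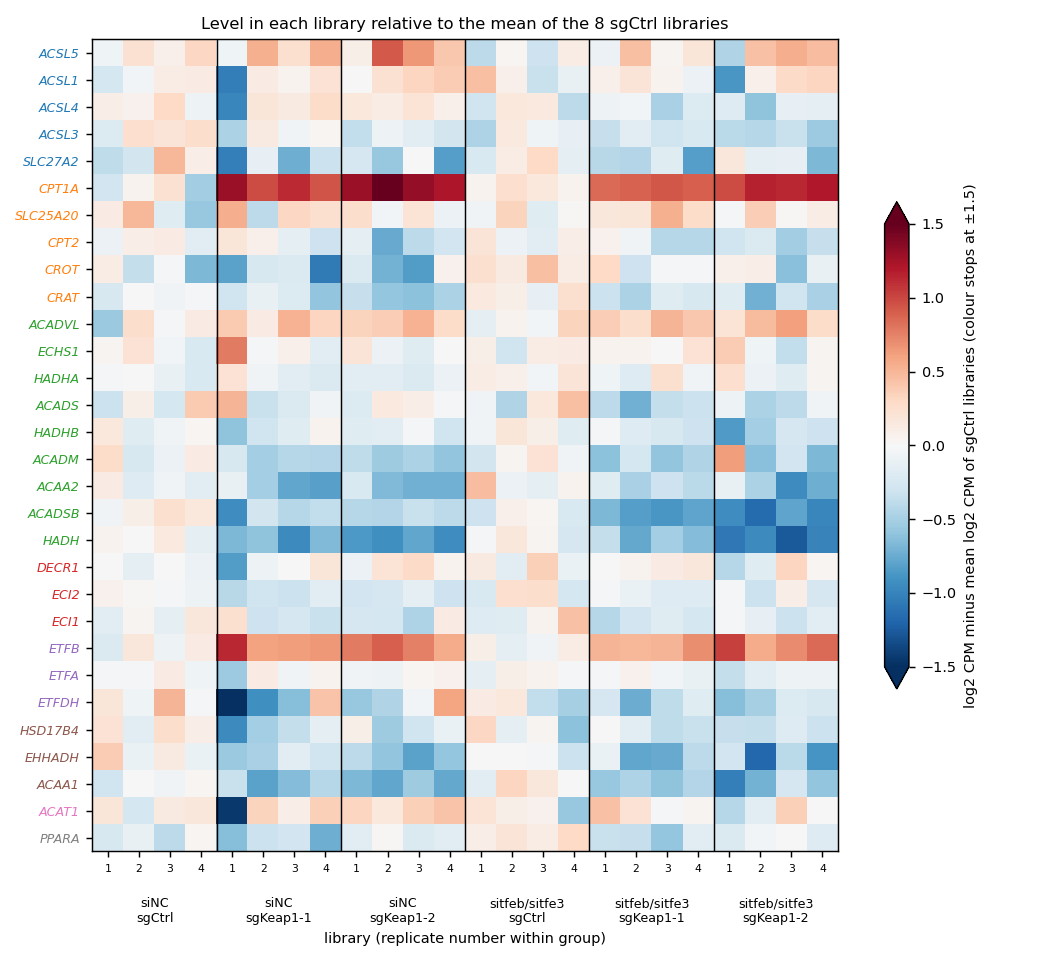
Log2 CPM of the 30 members in each of the 24 libraries relative to the mean of the 8 sgCtrl libraries, in the role order of the fold change plot. Red is higher and blue is lower, and colors stop at 1.5. The rows of CPT1A and ETFB are red and that of HADH blue in all 16 KEAP1-guide libraries, and siNC sgKeap1-1 replicate 1 stands out in several rows.

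Activation and uptake genes gave 2 calls among 5, both lower, beside 30.9% of all genes called and 15.6% lower. ACSL3, an acyl-CoA synthetase of lipid droplets and endoplasmic reticulum, was read at 436 to 766 CPM. The siNC libraries held 551, 754, 724 and 766 CPM of ACSL3 with sgCtrl, 458, 700, 613 and 651 CPM with sgKeap1-1 and 492, 602, 564 and 525 CPM with sgKeap1-2. The corresponding ACSL3 values after sitfeb/sitfe3 were 461, 704, 610 and 584 CPM with sgCtrl, 499, 568, 518 and 544 CPM with sgKeap1-1 and 481, 472, 504 and 436 CPM with sgKeap1-2. Groups overlapped in both arms. ACSL3 fell with an averaged log2 fold change of -0.25 (SE 0.08, adjusted p = 0.0153), a call lost without sitfeb/sitfe3 sgCtrl replicate 2 (-0.20, adjusted p = 0.0572). It passed in none of the single comparisons, and with the replicate block it passed for sgKeap1-2, at -0.35 with siNC (adjusted p = 0.00976) and -0.31 after sitfeb/sitfe3 (adjusted p = 0.0188).

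SLC27A2, which activates very long chains and takes up fatty acids, was read at 36 to 98 reads per library. SLC27A2 levels under siNC were 14.2, 15.2, 26.1 and 19.8 CPM with sgCtrl, 9.07, 17, 11.1 and 14.7 CPM with sgKeap1-1 and 15.5, 12.4, 18.5 and 10.4 CPM with sgKeap1-2. The corresponding SLC27A2 values after sitfeb/sitfe3 were 15.8, 20, 22.7 and 16.8 CPM with sgCtrl, 13.8, 13.6, 16.3 and 10.4 CPM with sgKeap1-1 and 20.7, 16.7, 17 and 11.6 CPM with sgKeap1-2. The groups overlapped widely. SLC27A2 fell with an averaged log2 fold change of -0.41 (SE 0.14, adjusted p = 0.0237), and this call was lost without siNC sgCtrl replicate 3 (-0.33, adjusted p = 0.0756) or replicate 4 (-0.39, 0.0501) and without sitfeb/sitfe3 sgCtrl replicate 3 (-0.36, 0.0663). ACSL5, a synthetase of mitochondria and endoplasmic reticulum, had a log2 change of 0.31 (95% interval 0.06 to 0.56, adjusted p = 0.0508) and passed with edgeR (0.33, adjusted p = 0.0364) and DESeq2 (0.32, adjusted p = 0.0272). With the replicate block ACSL5 passed as well, at 0.31 (adjusted p = 0.00268), and for sgKeap1-2 alone at 0.38 with siNC (adjusted p = 0.0369) and 0.41 after sitfeb/sitfe3 (adjusted p = 0.0228). ACSL1 had a log2 change of 0.04 (95% interval -0.26 to 0.33, adjusted p = 0.886), and ACSL4, which prefers arachidonic acid, had -0.11 (95% interval -0.34 to 0.13, adjusted p = 0.535).

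Of the ketone genes, ACAT1 was tested and did not pass. ACAT1 is the mitochondrial acetoacetyl-CoA thiolase of ketone synthesis and breakdown. It held 43.9 to 75 CPM (median 70.4) in the 8 sgCtrl libraries and 23.9 to 88.4 CPM (median 74.2) in the 16 KEAP1-guide libraries, with a log2 fold change of 0.07 (95% interval -0.25 to 0.39, adjusted p = 0.778). The lowest value, 23.9 CPM, came from siNC sgKeap1-1 replicate 1, and the other 3 libraries of that group held 82, 69.6 and 83.4 CPM.

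PPARA itself fell on average. In the siNC arm, PPARA stood at 40.6, 44.4, 36.5 and 48.8 CPM with sgCtrl, at 30.7, 38.4, 39.2 and 28.9 CPM with sgKeap1-1 and at 42.9, 48.4, 41.3 and 43 CPM with sgKeap1-2. The corresponding PPARA values after sitfeb/sitfe3 were 51.3, 54.8, 51.7 and 59 CPM with sgCtrl, 38.1, 37.6, 32.1 and 42.9 CPM with sgKeap1-1 and 41.2, 46.7, 47.7 and 41.9 CPM with sgKeap1-2. After sitfeb/sitfe3 the KEAP1-guide libraries lay below the sgCtrl libraries, and with siNC the sgKeap1-2 libraries lay inside the sgCtrl range. The averaged log2 fold change was -0.27 (SE 0.07, adjusted p = 0.00544), and the single ones were -0.32 for sgKeap1-1 and 0.04 for sgKeap1-2 with siNC, and -0.52 (SE 0.12, adjusted p = 0.00397) and -0.28 (SE 0.12, adjusted p = 0.0889) after sitfeb/sitfe3. The test of sgKeap1-2 against sgKeap1-1 gave a log2 change of 0.30 (95% interval 0.12 to 0.48, adjusted p = 0.259).

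No member passed the test of a difference between the guides. In that test of sgKeap1-2 against sgKeap1-1, averaged over siRNAs, 0 of 30 members passed, beside 0.117% of all genes, and also 0 by edgeR and by DESeq2. At an unadjusted p under 0.05 there were 3, beside 8.53% of all genes: PPARA, HADH at a log2 change of -0.32 (95% interval -0.50 to -0.14, adjusted p = 0.239) and CPT1A at 0.24 (95% interval 0.08 to 0.41, adjusted p = 0.351). For CPT1A and HADH the sgKeap1-2 mean was farther from the sgCtrl mean in both siRNA arms. The libraries of the guides overlapped with siNC for both genes and did not after sitfeb/sitfe3.

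Knockdown of TFEB and TFE3 gave few calls, among these genes as among all genes tested. Averaged over the 3 guides, 1 of 30 members passed, beside 2.33% of all genes, 1.39% of all being lower. It was ACADSB, which fell with a log2 change of -0.36 (SE 0.07, adjusted p = 0.00367). With siNC ACADSB averaged 202 ± 17.1, 134 ± 25 and 141 ± 4.75 CPM with sgCtrl, sgKeap1-1 and sgKeap1-2, and after sitfeb/sitfe3 174 ± 22.6, 108 ± 6.69 and 96.1 ± 9.72 CPM (SD, n = 4). Within sgKeap1-2 cells all 4 sitfeb/sitfe3 libraries were below all 4 siNC libraries, at most 108 CPM against at least 137 CPM. ACADSB therefore carried both changes, and its lowest group was sitfeb/sitfe3 with sgKeap1-2.

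In single guides the knockdown gave 0 members with sgCtrl (0.0179% of all genes), 0 with sgKeap1-1 (0.0897%) and 1 with sgKeap1-2 (0.359%, 0.26% lower), again ACADSB. There its log2 fold change was -0.56 (SE 0.12, adjusted p = 0.0461), against -0.22 (SE 0.12, adjusted p = 1) in sgCtrl and -0.30 (SE 0.12, adjusted p = 0.543) in sgKeap1-1. By edgeR the counts were 0, 0 and 1, and by DESeq2 the same. At an unadjusted p under 0.05 there were 3 members in each guide, beside 4.63% of all genes with sgCtrl, 8.08% with sgKeap1-1 and 10.5% with sgKeap1-2. The call in sgKeap1-2 cells was lost without any 1 of 11 of the 24, with adjusted p up to 0.144. These were all 4 of siNC sgKeap1-2, replicates 1, 2 and 4 of sitfeb/sitfe3 sgKeap1-2, replicates 3 and 4 of sitfeb/sitfe3 sgCtrl, siNC sgCtrl replicate 2 and siNC sgKeap1-1 replicate 3. The averaged call held without each library in turn.

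Among the others, ACSL3 had an averaged knockdown log2 fold change of -0.21 (SE 0.07, adjusted p = 0.164) and ACSL4 of -0.23 (SE 0.11, adjusted p = 0.357). With the replicate block ACSL3 passed, at -0.21 (adjusted p = 0.029), which made 2 members beside 3.41% of all genes, and ACSL4 did not. Both passed without siNC sgKeap1-1 replicate 1, at -0.25 (adjusted p = 0.035) and -0.33 (adjusted p = 0.00863), which brought the members called to 3. In that library ACSL4 held 252 CPM, against 564, 547 and 601 CPM in the rest of its group. CROT had a log2 change of 0.43 (95% interval 0.15 to 0.72, adjusted p = 0.105) and PPARA 0.17 (95% interval 0.03 to 0.32, adjusted p = 0.259), both with sitfeb/sitfe3 above siNC and neither past the threshold. In sgCtrl cells all 4 PPARA values after sitfeb/sitfe3, 51.3 to 59 CPM, were above all 4 with siNC, 36.5 to 48.8 CPM. That was the 1 member of 30 (3.33%) without overlap there, beside 3.44% of all genes. The members' median log2 fold change under knockdown was -0.01 and that of all genes 0.01.

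**Figure D4:**
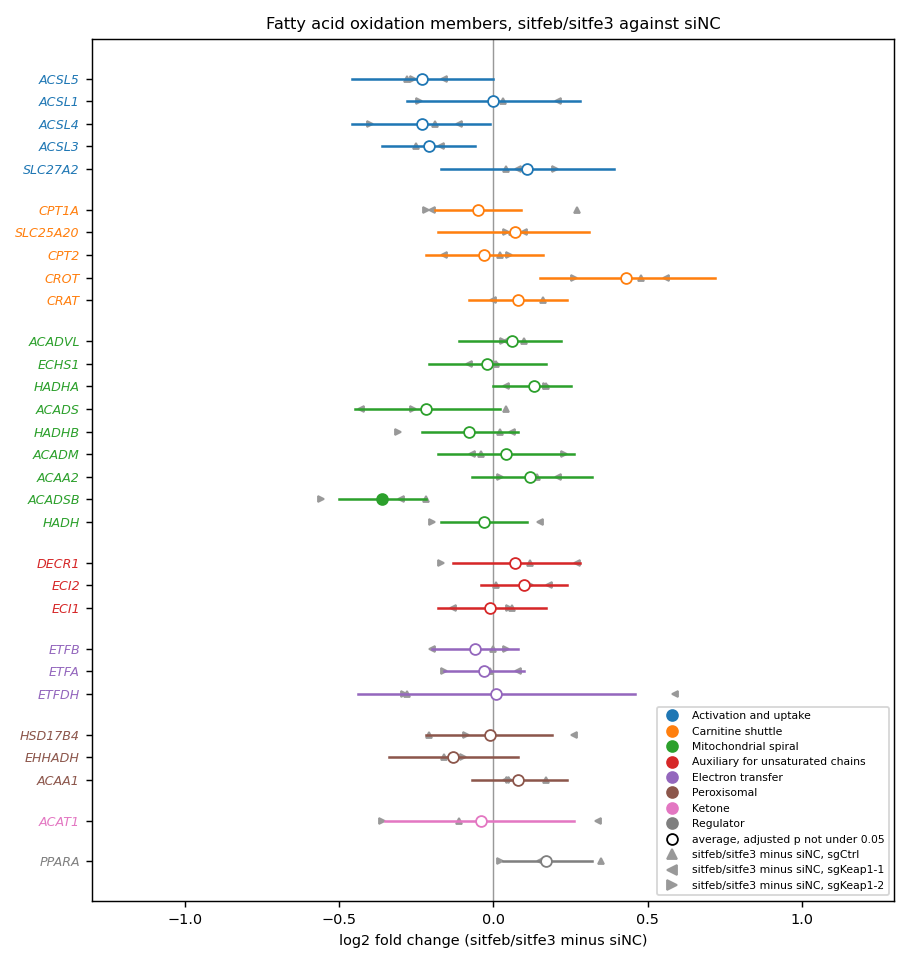
Log2 fold change of the 30 members, sitfeb/sitfe3 minus siNC. Circles are the average over the 3 guides with its 95% interval, filled where the adjusted p was under 0.05, and gray symbols are the 3 guides. ACADSB at -0.36 is the 1 filled circle, and the averages of the members range from -0.36 to 0.43.

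The interaction asks whether the KEAP1 effect differs between siRNAs. None of the 30 members passed (0% of all genes), also by edgeR and DESeq2, and 1 had an unadjusted p under 0.05, beside 349 of all genes (3.13%). It was CPT1A, where the log2 change after sitfeb/sitfe3 minus that with siNC was -0.47 (95% interval -0.78 to -0.17, adjusted p = 0.999). The log2 change of CPT1A for sgKeap1-1 and sgKeap1-2 was 1.22 and 1.47 with siNC and 0.76 and 0.99 after sitfeb/sitfe3. In sgKeap1-1 cells all 4 CPT1A values after knockdown, 196 to 208 CPM, were below the 4 with siNC, 210 to 267 CPM, and in sgKeap1-2 cells the ranges were 215 to 251 and 253 to 314 CPM. In sgCtrl cells they were 113 to 130 and 75.7 to 128 CPM. Without overlap under knockdown were 1 of 30 members (3.33%) in sgKeap1-1 cells, which was CPT1A, and 4 (13.3%) in sgKeap1-2 cells, which were ACADSB, ACSL4, CPT1A and HADH, beside 5.01% and 5.72% of all genes.

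Other genes of fatty acid handling were taken from lists and described in the same way for the averaged KEAP1 comparison. Of 38 further oxidation and ketone genes listed, 29 were tested, and 2 rose and 6 fell, with a median of -0.07. FABP1, the liver fatty acid binding protein, held 672 to 1690 CPM (median 1360) in the 8 sgCtrl libraries and 153 to 453 CPM (median 364) in the 16 KEAP1-guide libraries, without overlap, and fell with a log2 change of -1.93 (SE 0.13, adjusted p = 5.37e-12). CD36, a fatty acid transporter of the plasma membrane, held 1.18 to 6.95 CPM (median 3.85) in the 8 sgCtrl libraries and 10.1 to 25.4 CPM (median 15.4) in the 16 KEAP1-guide libraries, also without overlap, and rose with a log2 change of 2.19 (SE 0.29, adjusted p = 1.25e-06). The peroxisomal reductase PECR fell with a log2 change of -0.82 (SE 0.12, adjusted p = 8.4e-06), PHYH, which starts α-oxidation of phytanic acid, with -0.59 (SE 0.11, adjusted p = 0.000167), and the isomerase ECH1 with -0.53 (SE 0.07, adjusted p = 4.43e-07).

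Of 14 genes of the PPARA and PGC1 axis, 11 were tested, and 2 rose and 3 fell, with a median of -0.09. PPARGC1B, a coactivator of mitochondrial genes, held 0.232 to 2.01 CPM (median 1.15) in the 8 sgCtrl libraries, a low level. In the 16 KEAP1-guide libraries it held 3.69 to 9.05 CPM (median 5.69), and it rose with a log2 change of 2.25 (SE 0.29, adjusted p = 7.22e-07). VNN1, a pantetheinase, rose with a log2 change of 1.55 (SE 0.33, adjusted p = 0.000537), from a low level of at most 2.12 CPM with sgCtrl. CREB3L3, a liver transcription factor that works with PPARA in fasting, fell with a log2 change of -1.51 (SE 0.16, adjusted p = 4.1e-08), RXRA with -0.56 (SE 0.08, adjusted p = 4.82e-06), and ANGPTL4, an inhibitor of lipoprotein lipase, with -0.96 (SE 0.29, adjusted p = 0.0133). PPARGC1A did not pass there but fell under knockdown averaged over guides, with a log2 change of -0.76 (SE 0.15, adjusted p = 0.0042). It was the 1 gene of 11 called in that knockdown comparison, beside 2.33% of all genes, 1.39% of all being lower.

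Peroxisome biogenesis genes gave 2 calls. Of 14 tested, PEX11A, which promotes peroxisome division, fell with a log2 change of -0.79 (SE 0.14, adjusted p = 5.25e-05) and PEX26 rose with 0.30 (SE 0.08, adjusted p = 0.00696), and the median was 0.08. Among the TCA cycle genes named here, OGDH rose with a log2 change of 0.32 (SE 0.12, adjusted p = 0.0448), while SUCLG1 fell with -0.40 (SE 0.07, adjusted p = 0.000117) and FH with -0.36 (SE 0.11, adjusted p = 0.0166). The share of peroxisome biogenesis genes that passed, 14.3%, is under the 30.9% of all genes, that of the other oxidation genes (27.6%) near it and that of the PPARA and PGC1 axis (45.5%) above it, on 5 genes.

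**Figure D5:**
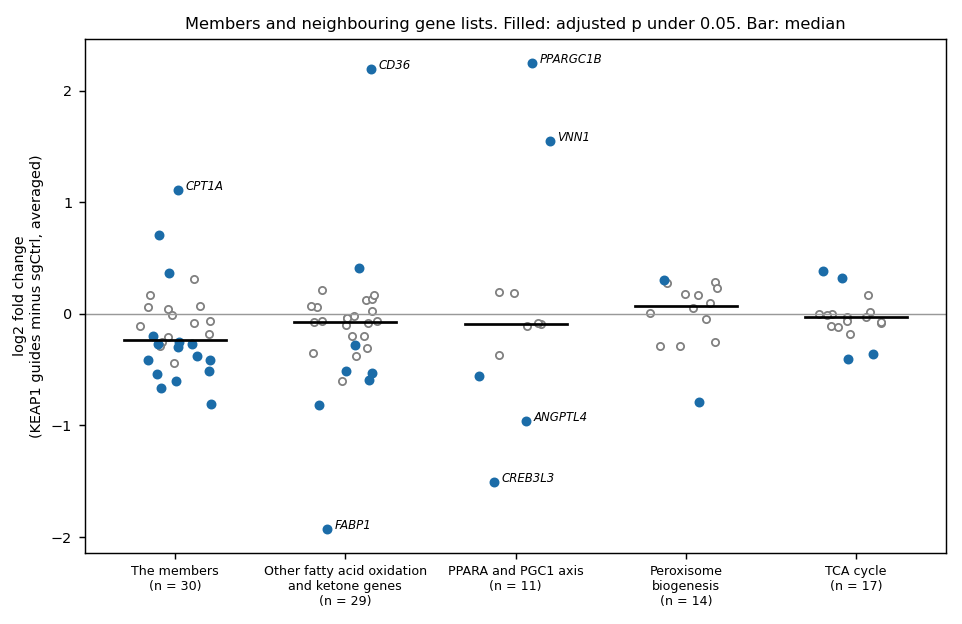
Log2 fold change, KEAP1 guides minus sgCtrl averaged over guides and siRNAs, for the 30 members and 4 other lists. Points are genes, filled where the adjusted p was under 0.05, and bars are medians. Gene names mark points beyond 0.9, and FABP1 at -1.93 and PPARGC1B at 2.25 are the extremes, the latter from a low level with sgCtrl.

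The hepatocyte markers moved in the same comparison as the members that fell. ALB, AFP, APOA1, TF, FGB and APOB fell, with log2 fold changes from -1.89 for AFP and -1.18 for ALB to -0.26 for APOB, while TTR and SERPINA1 did not pass. The part of the marker change in the values of the members was not tested.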

How the data were processed

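The authors deposited 1 table of raw read counts per gene from QuantSeq 3′ RNA-Seq of HepG2 cells (24 libraries, 6 groups of 4). The submitters' processing notes name FastQC 0.72, cutadapt 1.16, STAR 2.7.5b, featureCounts 1.6.3, limma 3.40.6 and hg38, whereas the study's methods give hg19 for these cells. The annotation file and strand setting are not given in the sources used here. 3′ counting yields reads near transcript ends, so counts depend little on transcript length. Without the strand setting, reads of overlapping genes cannot be told apart.

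Libraries were grouped by GEO's labels. Libraries with the same replicate number share a date-like prefix in their descriptions across the 6 groups, so the replicate number was also fitted as a block. Residuals of same-numbered libraries correlated at -0.124 to 0.418 over 60 pairs (median 0.0495, 15 over 0.1), against a median of -0.0186 over 180 other pairs (17 over 0.1). Of 13446 rows, 1414 carried no gene ID (1.35% to 2.57% of reads) and were left out of library sizes and tests, and 43 rows that shared 20 IDs were summed. Symbols were found for 11980 of 12009 IDs, and IDs with identical counts were joined, which left 11927 features. Genes with low counts were removed by filterByExpr, and 11152 were fitted in R 4.3.3 by voom of limma 3.58.1, with the TMM scaling of edgeR 4.0.16, with 6 group means in 1 model. Tests were two-sided, with Benjamini-Hochberg adjustment over all genes and a threshold of 0.05, and intervals are 95%. The averaged KEAP1 comparison is the mean of 4 single ones. CPM use TMM-scaled library sizes. Libraries held 3527000 to 4600951 reads (median 4181650.5), and with low counts, as for ETFDH, precision is limited by counting.

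The members and all lists were chosen with earlier results of these data known. The genes given in every library are CPT1A, PPARA and the members that passed in the averaged KEAP1 comparison, a knockdown comparison or the interaction, at most 16. From each other list at most 5 genes that passed in the averaged KEAP1 comparison were named, by smallest adjusted p. ACAT1 and other members that did not pass, PPARGC1A and the markers were named after their values were seen. Some listed genes are not reported here. The scripts were tested on simulated counts. Alternatives were edgeR's quasi-likelihood test, DESeq2 1.42.0, other filters and scalings, a replicate block, quality weights, fits of only the groups compared, and leaving out libraries. Promoter windows came from RefSeq (GRCh38.p14) and were matched by gene ID.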

Additional observations from a re-analysis of the deposited data

Results flagged for a closer look

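Among 96 groups of 4 libraries, 16 members in 6 groups, 4 held a library whose gap to its nearest neighbor took more of the group's whole range than Dixon's 95% critical value for 4 allows. Chance gives this in about 1 in 20 groups. ETFB stood at 1760 CPM in siNC sgKeap1-1 replicate 1, beside 1220, 1240 and 1260 CPM in the rest of the group, and this library was 1 of the pair that stood apart over all genes. In sitfeb/sitfe3 sgKeap1-1 replicate 4 ETFB stood at 1300 CPM, beside 1140, 1130 and 1140 CPM. EHHADH stood at 31.2 CPM in sitfeb/sitfe3 sgCtrl replicate 4, beside 39.2, 38.9 and 38.5 CPM. ACAA2 stood at 110 CPM in siNC sgKeap1-2 replicate 1, beside 81.3, 77.9 and 78.2 CPM. The calls of ETFB, EHHADH and ACAA2 for the averaged KEAP1 comparison held without each of the 24 libraries in turn. No member had all libraries of the guides moving in opposite directions, and none passed the interaction test.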

How the results depend on the processing

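No call changed direction under the alternatives tried. Of the 16 members called in the averaged KEAP1 comparison, 12 kept the call in all 32 alternative settings, and ACSL3, SLC27A2, HSD17B4 and ECI2 lost it without single sgCtrl libraries or, for ECI2, 1 sgKeap1-2 library. HSD17B4 also lost it with all libraries numbered 1 left out (-0.21, adjusted p = 0.0683). Leaving out 1 library at a time gave 4 to 8 members for sgKeap1-1 and 6 to 10 for sgKeap1-2 with siNC, 6 to 8 and 8 to 12 after sitfeb/sitfe3, and 14 to 19 for the averaged KEAP1 comparison. For the knockdown it gave 0 in sgCtrl and sgKeap1-1, 0 to 1 in sgKeap1-2 and 1 to 3 averaged, with 3 only without siNC sgKeap1-1 replicate 1, and it gave 0 for the interaction and for the guides. The shares of all genes in the fits without 1 library are not given here. With the replicate block the KEAP1 comparisons gave 8, 11, 7, 11 and 17, beside 13%, 17.1%, 12.4%, 22.2% and 32.8% of all genes. For the knockdown in sgCtrl, sgKeap1-1, sgKeap1-2 and averaged the counts were 0, 0, 1 and 2, beside 0.0359%, 0.269%, 0.511% and 3.41%. They were 0 for the interaction and for the guides, beside 0% and 0.43%. The block gained 9 calls, of ACSL5, ACAA2, EHHADH and ACSL3, all given above, and changed no other call. Library quality weights gave 11 for sgKeap1-1 after sitfeb/sitfe3, beside 17.9% of all genes (10.5% in the main fit). They gave 1 for the knockdown in sgKeap1-1 (0.466% of all genes) and 3 for it averaged (5.31%). Fitting only the groups compared gave 0 for the knockdown in sgKeap1-2 (0.104%). Leaving out all libraries numbered 1 gave 1 for the knockdown in sgKeap1-1 (0.331%) and 3 averaged (4.25%). Leaving out the pair that stood apart, chosen after seeing the data, gave 3 averaged (3.83%). In the main fit the knockdown shares were 0.0897% in sgKeap1-1, 0.359% in sgKeap1-2 and 2.33% averaged. The cause of these shifts was not tested. At 36 to 98 reads SLC27A2, and at 3 to 41 ETFDH, were limited by depth.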
